A study of Homo sapiens with 8 samples.

Results

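The HMGN family comprises 5 genes for small nuclear proteins that bind nucleosomes, and its reads were followed through microRNA pulldowns from 786-0 cells, an established human clear cell renal carcinoma line. The 5 members were taken by Ensembl ID from a table of 60666 gene rows: HMGN1 (ENSG00000205581), HMGN2 (ENSG00000198830), HMGN3 (ENSG00000118418), HMGN4 (ENSG00000182952) and HMGN5 (ENSG00000198157). All 5 passed the filter on low counts, which kept 17351 rows for testing. The family was selected on the counts of 1 member, HMGN5, and the other 4 were chosen by family name. Among rows with a mean log2 CPM of at least 1, HMGN5 had the deepest loss of reads in the miR-1271 libraries relative to the control libraries. The levels and differences of HMGN5 are therefore given as a description, with no test, while HMGN1 to HMGN4 were tested.

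Biotinylated synthetic duplexes were transfected into the cells for 48 h, and RNA bound to them was retrieved and sequenced. The control group held 3 libraries made with a control microRNA duplex, the miR-2355 group 2 libraries with miR-2355-5p and the miR-1271 group 3 libraries with miR-1271-5p. All 8 libraries came from this 1 line, and all groups shared the transfection, the biotin label and the pulldown. Whether replicate libraries stem from separate cultures is not stated, and the p-values therefore reflect only library-to-library spread, part of which may be technical. Total counts ran from 4122875 in control replicate 2 to 22864693 in control replicate 1, and TMM scaling factors (edgeR's correction for differences in library composition) from 0.924 to 1.07. The labelled renal epithelial identity was not checked against marker genes, because the table lists Ensembl IDs without names and names were at hand for the 5 members alone.

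HMGN proteins bind the nucleosome core through a short conserved nucleosome-binding domain, without regard to the DNA sequence, and compete there with linker histone H1, which makes chromatin less compact. HMGN1 and HMGN2 are the founding and broadly expressed members. HMGN3 is made in a long and a short splice form that differ in the C-terminal regulatory domain, HMGN4 is a close relative of HMGN2 whose coding sequence has no introns, and HMGN5 carries a long acidic C-terminal tail. A microRNA loaded into Argonaute pairs with target RNAs mainly through its seed, the bases near its 5′ end, and a pulldown with a tagged microRNA is meant to enrich the RNAs it holds.

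The microRNAs used as bait define the groups, and their mature sequences are shown with the seed (bases 2 to 8) in capitals, together with the one other human microRNA of the same seed. Sequences and positions are those of RefSeq on GRCh38.p14, 5′ to 3′.
miR-1271-5p: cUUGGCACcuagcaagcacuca
miR-96-5p: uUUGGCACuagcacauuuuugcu
miR-2355-5p: aUCCCCAGauacaauggacaa
The miR-1271-5p sequence lies at chr5:176367960-176367981 on the plus strand, miR-96-5p at chr7:129774739-129774761 on the minus strand and miR-2355-5p at chr2:207110043-207110063 on the minus strand. The seed of miR-1271-5p was shared by 2 of 2370 mature microRNA names in the table, itself and miR-96-5p, and that of miR-2355-5p by 1, itself alone. An RNA pairing fully with these seeds would carry GUGCCAA for miR-1271-5p and CUGGGGA for miR-2355-5p. Transcript sequences were not used here, so the HMGN messages were not searched for either site.

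The members lie at separate loci and differ in how many near-identical copies the genome holds. HMGN1 lies at chr21:39342315-39349088 on the minus strand, and RefSeq names 38 HMGN1 pseudogenes. A RefSeq snoRNA gene, LOC124905074, overlaps it over 107 bases. HMGN2 lies at chr1:26472440-26476642 on the plus strand, with 48 named pseudogenes. For HMGN1 and HMGN2, reads can therefore be shared with or lost to copies, depending on how reads that map to several places were counted, which is not given in the sources used here. HMGN3 lies at chr6:79201245-79234682 on the minus strand, has 1 named pseudogene, and overlaps its antisense gene HMGN3-AS1 over 1009 bases. Without a stated strand setting, reads from that overlap cannot be assigned to one or the other. HMGN4 at chr6:26538366-26546933 (plus strand) and HMGN5 at chrX:81113699-81201913 (minus strand) have no named pseudogene, but the HMGN4 row could share reads with HMGN2, to which its sequence is related.

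In both microRNA pulldowns, HMGN1, HMGN2 and HMGN3 fell relative to the control pulldown, HMGN3 by about 3-fold and HMGN1 and HMGN2 by less than 2-fold, while HMGN4 did not pass the test in either. Falls were common among all tested rows, 22.5% of which were lower with miR-1271 and 17.5% with miR-2355 (edgeR adjusted p under 0.05). HMGN5 stood far lower than in the control with both microRNAs, lowest with miR-1271. None of the 4 tested members was called higher with either microRNA, where 17.6% of all rows were higher with miR-1271 and 12.3% with miR-2355. Values are shares of the RNA recovered: neither RNA from before the pulldown nor the amount recovered was used here, so a changed level of a message in the cells and a changed recovery of it cannot be told apart.

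HMGN5 is described first, as the member that chose the family. Its levels (CPM, the share of a library's reads after TMM scaling, times 1e6) were 13.6, 16.8 and 21.6 in the 3 control libraries, 2.29 and 2.43 with miR-2355 as bait, and 1.03, 0.889 and 0.791 with miR-1271. Every microRNA library lay below every control library, and every miR-1271 library below both miR-2355 libraries. All miR-1271 libraries lay below all controls in 26.8% of tested rows and both miR-2355 libraries did in 27.8%. Both miR-2355 libraries lay above all miR-1271 libraries in 21.1%. Nothing is read from these shares for HMGN5, since the rule used its control and miR-1271 libraries, and both comparisons with control share the controls. These levels rest on 859 reads over the controls, 81 over the miR-2355 group and 29 over the miR-1271 group. The pooled share was 19.4-fold lower with miR-1271 than with the control (exact 95% interval 13.4 to 29.2) and 7.37-fold lower with miR-2355 (5.86 to 9.38). It was 2.64-fold higher with miR-2355 than with miR-1271 (1.71 to 4.18). The member was selected on its low miR-1271 share, so that these intervals exclude a ratio of 1 is no test. Counting error alone enters them, and reads that carry no molecular identifier can be copies of 1 molecule.

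On the log2 scale the fitted HMGN5 difference was -4.27 ± 0.26 (SE) for miR-1271 against control and -2.88 ± 0.25 (SE) for miR-2355 against control. Both differences use the same 3 control libraries. Among rows with a mean log2 CPM of at least 1, HMGN5 had the lowest miR-1271 difference. The next row outside the rule, ENSG00000250461, stood at -3.81 ± 0.32 (SE), with 6.59 ± 0.95 CPM (SD, n = 3) in the controls and 0.467 ± 0.109 CPM (SD, n = 3) with miR-1271. Without that minimum HMGN5 was the 5th lowest of all 17351 tested rows with miR-1271, and with miR-2355, whose libraries the rule did not use, it was the 41st lowest.

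**Figure D1:**
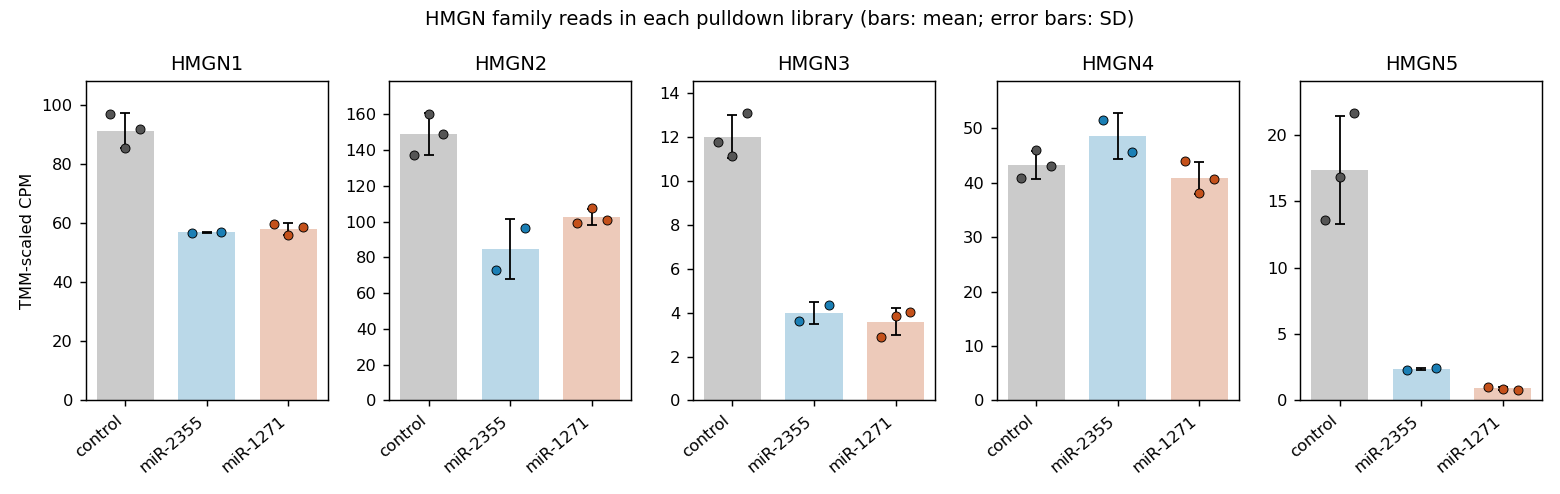
Level of each HMGN gene, in TMM-scaled CPM, in the 3 control, 2 miR-2355 and 3 miR-1271 libraries (points), with group means (bars) and SD (error bars). Each panel has its own axis from 0. HMGN1, HMGN2 and HMGN3 lie below all controls in every microRNA library, as did 26.8% of tested rows with miR-1271 and 27.8% with miR-2355. HMGN5 does too, shown as a description because it chose the family. HMGN4 libraries of each microRNA overlap with the controls.

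HMGN3, which was first found as a partner of the thyroid hormone receptor, had the largest fall among the tested members. Its levels were 11.8, 11.2 and 13.1 CPM in the controls, 3.62 and 4.35 CPM with miR-2355, and 2.89, 3.85 and 4.03 CPM with miR-1271. All 5 microRNA libraries lay below all 3 controls (26.8% of rows separated so with miR-1271 and 27.8% with miR-2355), and the 2 microRNA groups overlapped. HMGN3 fell by 1.74 ± 0.19 (SE) on the log2 scale with miR-1271, a 3.35-fold lower level (edgeR adjusted p = 3.54e-06), and 2.17% of tested rows had a lower difference. With miR-2355 it fell by 1.61 ± 0.21 (SE), or 3.05-fold (edgeR adjusted p = 2.61e-05), and 2.67% of rows were lower. The direct difference between the microRNAs, miR-2355 minus miR-1271, was 0.14 with a 95% interval of -0.34 to 0.62 and did not pass (edgeR adjusted p = 0.774). Its counts were the lowest of the tested members, 608 reads over the controls, 136 over the miR-2355 libraries and 118 over the miR-1271 libraries.

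HMGN1, a nucleosome-binding protein known for its part in transcription and DNA repair, fell by a similar size in both pulldowns. It stood at 96.9, 85.4 and 92.0 CPM in the controls, at 56.9 and 57.1 CPM with miR-2355 and at 59.9, 56.0 and 58.7 CPM with miR-1271. The gap between the lowest control and the highest microRNA library was wider than the spread within any group. A separation of any width below all controls was seen in 26.8% of tested rows with miR-1271 and 27.8% with miR-2355. The log2 difference was -0.66 ± 0.11 (SE) for miR-1271, a 1.58-fold lower level (edgeR adjusted p = 0.000143), and -0.69 ± 0.12 (SE) for miR-2355, a 1.61-fold lower level (edgeR adjusted p = 0.000398). Of all tested rows, 18.1% had a lower difference with miR-1271 and 15% with miR-2355. Between the microRNAs HMGN1 differed by -0.03 (95% interval -0.28 to 0.22; edgeR adjusted p = 0.914).

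HMGN2, the closest relative of HMGN4, was at 137, 161 and 149 CPM in the controls. It was at 72.8 and 96.4 CPM with miR-2355 and at 99.2, 108 and 101 CPM with miR-1271. All microRNA libraries again lay below all controls (26.8% of rows separated so with miR-1271 and 27.8% with miR-2355). Both miR-2355 libraries lay below the 3 miR-1271 libraries, and the 2 miR-2355 libraries differed from each other more than the miR-1271 libraries did. HMGN2 fell by 0.54 ± 0.12 (SE) on the log2 scale with miR-1271, or 1.45-fold (edgeR adjusted p = 0.00265), and by 0.81 ± 0.14 (SE) with miR-2355, or 1.76-fold (edgeR adjusted p = 0.000384). Rows with a lower difference made up 22.3% and 11.8% of those tested. The direct difference of -0.28 (95% interval -0.57 to 0.02) did not pass (edgeR adjusted p = 0.246), although the TMM-scaled groups did not overlap. It moved to -0.08 without miR-2355 replicate 1 and to -0.49 without miR-2355 replicate 2. The same separation, both miR-2355 libraries below all 3 miR-1271 libraries, was seen in 20.5% of tested rows. For HMGN2 it depended on TMM scaling. By library totals miR-2355 replicate 2 stood at 100.9 CPM, above the miR-1271 libraries at 92.8, 99.4 and 97.3 CPM.

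HMGN4 was the member without a called difference. Its levels were 40.8, 46.0 and 43.0 CPM in the controls, 51.5 and 45.6 CPM with miR-2355, and 44.0, 38.0 and 40.6 CPM with miR-1271. After TMM scaling, libraries of both microRNAs overlapped with the controls. By library totals the miR-1271 libraries, at 41.1, 35.1 and 39.2 CPM, lay below all controls, the lowest of which was at 42.1 CPM. The log2 difference was -0.07 with a 95% interval of -0.32 to 0.17 for miR-1271 (edgeR adjusted p = 0.645). Its sign turned with upper-quartile scaling and at equal depth, and it was -0.22 with library totals (edgeR adjusted p = 0.163). For miR-2355 the TMM-scaled difference was 0.17 with an interval of -0.09 to 0.44 (edgeR adjusted p = 0.325). These intervals do not reach the size of the HMGN1 difference in either pulldown. Both miR-2355 libraries lay above the 3 miR-1271 libraries, a separation that 21.1% of tested rows showed, and the direct difference of 0.25 (95% interval -0.02 to 0.52) did not pass (edgeR adjusted p = 0.258).

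**Figure D2:**
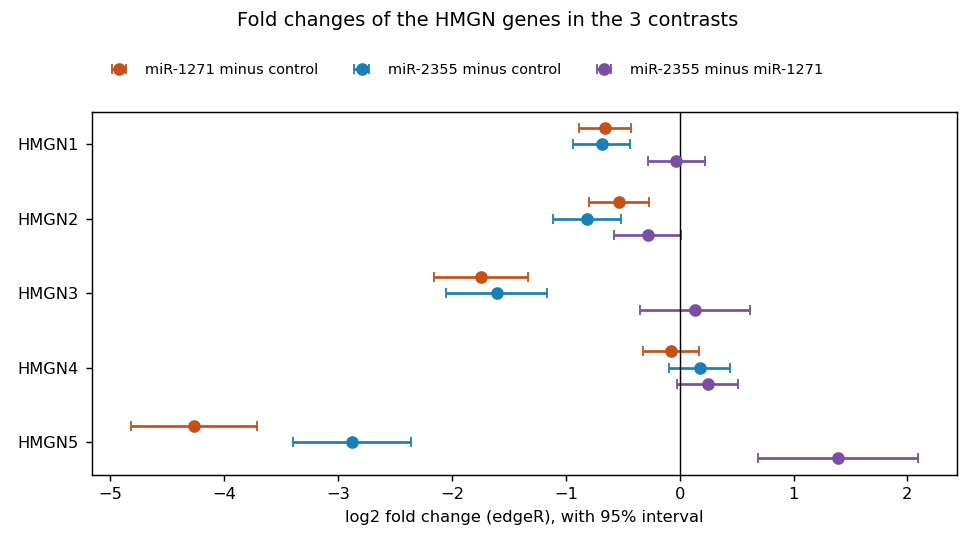
Fitted log2 fold changes of the HMGN genes (x axis) with 95% intervals (bars) for miR-1271 minus control, miR-2355 minus control and miR-2355 minus miR-1271. HMGN1, HMGN2 and HMGN3 lie below 0 in both contrasts with the control, HMGN4 intervals include 0, and HMGN5, shown as a description because it chose the family, lies lowest at -4.27 and -2.88.

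Of the 4 tested members, 3 were lower than the control with miR-1271 at an edgeR adjusted p under 0.05, against 22.5% of all tested rows. HMGN1, HMGN2 and HMGN3 were also the 3 that were lower with miR-2355, against 17.5% of all rows. A fall of at least 2-fold that passed the test was seen for 1 of the 4 members, HMGN3, in each pulldown, against 8.8% of all rows with miR-1271 and 7.18% with miR-2355. The median log2 difference of HMGN1 to HMGN4 was -0.60 with miR-1271 and -0.75 with miR-2355, against 0.0055 and -0.0046 over all tested rows. None of the 4 was called between the microRNAs (0 by edgeR, 0 by DESeq2, and 0 at an unadjusted edgeR p under 0.05), where 6.15% of all rows were called. The 2 contrasts with the control share the 3 control libraries, so the likeness of their values is partly built in. With control replicate 2, the shallowest library, left out, the same count of 3 members passed in each.

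**Figure D3:**
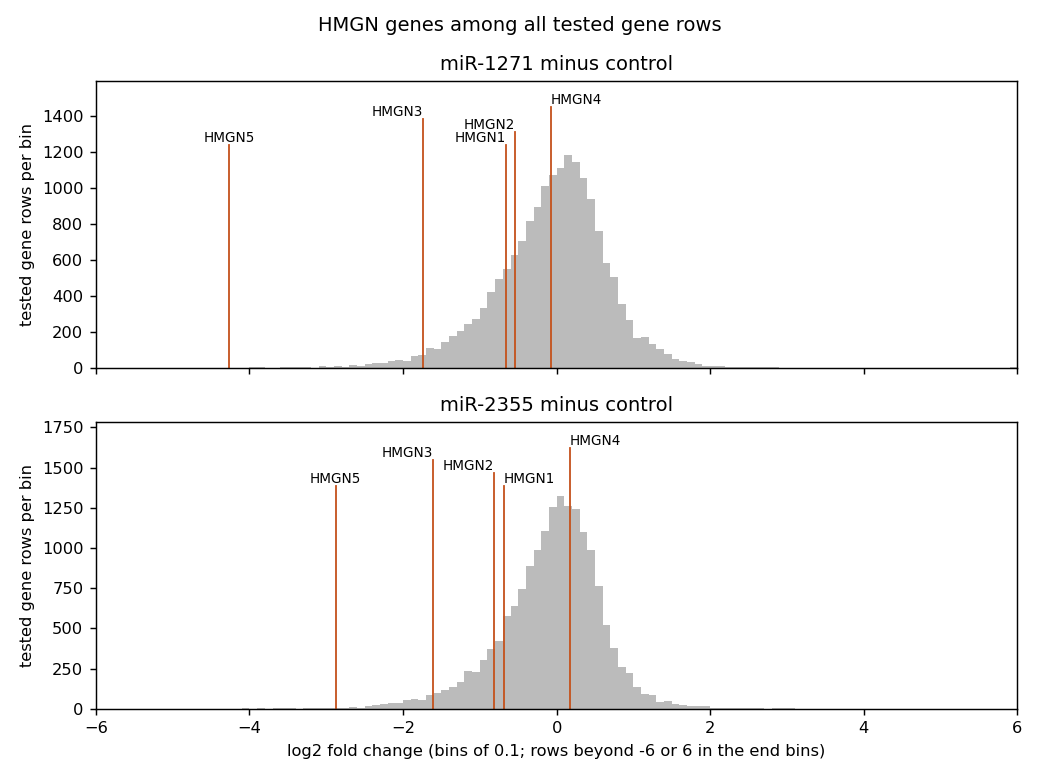
Number of tested gene rows (y axis) by log2 fold change (x axis, bins of 0.1) for each microRNA against control, with the HMGN genes marked by vertical lines whose height has no meaning. HMGN4 lies near the middle of the rows, HMGN1 and HMGN2 in the lower shoulder, HMGN3 in the lower tail and HMGN5 further down that tail, 5th lowest with miR-1271 and 41st lowest with miR-2355.

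Reads were also set against HMGN2 within each library, which needs no scaling between libraries. These are read ratios without a correction for transcript length, so they are compared between libraries and not between genes, and the choice of ratio was made after the levels had been seen. HMGN4 had 29.7, 28.7 and 28.8 reads per 100 HMGN2 reads in the controls, the narrowest spread of any group. With miR-2355 it had 70.8 and 47.3, and with miR-1271 44.3, 35.4 and 40.3. All 5 microRNA libraries lay above all controls, and both miR-2355 libraries above the miR-1271 libraries. Because HMGN2 itself fell, most rows moved up against it: all libraries lay above all controls in 52.6% of tested rows with miR-1271 and in 69.8% with miR-2355, and 37.2% of rows had both miR-2355 libraries above the miR-1271 libraries. The higher HMGN4 ratio is thus largely the fall of HMGN2 seen from the other side. The means were 29.1 ± 0.55 (SD, n = 3), 59.0 ± 16.6 (SD, n = 2) and 39.98 ± 4.49 (SD, n = 3).

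HMGN3 had 8.58, 6.95 and 8.77 reads per 100 HMGN2 reads in the controls, 4.98 and 4.52 with miR-2355, and 2.91, 3.58 and 3.99 with miR-1271. The 3 groups did not overlap, and HMGN3 had fewer reads relative to HMGN2 in every microRNA library than in any control. Of all tested rows, 10.3% lay below all controls in this ratio with miR-1271 and 5.43% with miR-2355. Both miR-2355 libraries lay above all miR-1271 libraries in 37.2% of rows. HMGN1 ran between 53.2 and 70.5 in the controls, between 59.2 and 78.2 with miR-2355 and between 52.1 and 60.4 with miR-1271, and these ranges overlapped in every comparison. For HMGN4 and HMGN3 against control, each exact permutation p was 0.1 (two-sided), the smallest that these group sizes allow, and 0.18 after Benjamini-Hochberg adjustment over the 9 ratios compared. Between the microRNAs the permutation p was 0.2 for HMGN3 (0.26 adjusted) and 0.1 for HMGN4 (0.18 adjusted). This permutation test cannot reach a p under 0.05 with these group sizes.

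**Figure D4:**
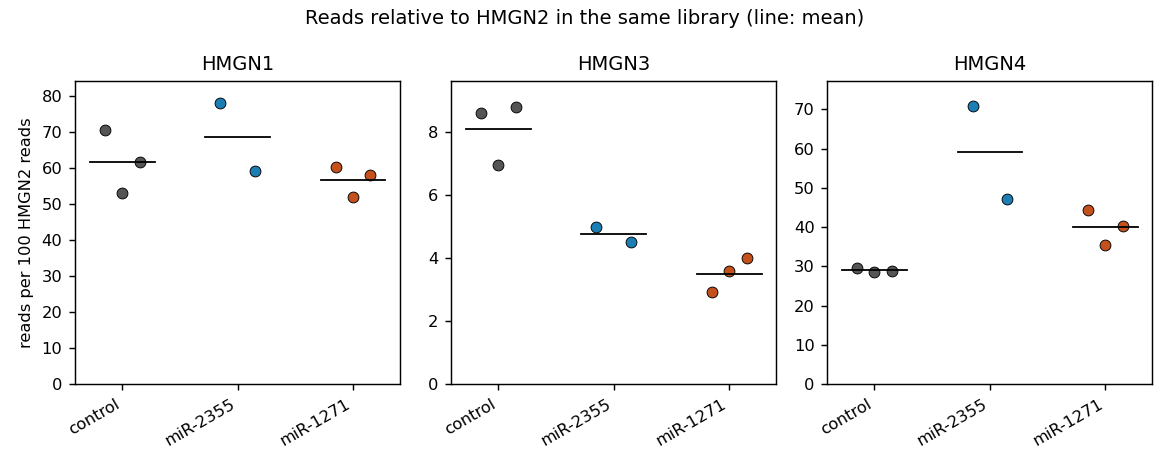
Reads of HMGN1, HMGN3 and HMGN4 per 100 HMGN2 reads of the same library (y axis from 0, own scale per panel) in the control, miR-2355 and miR-1271 libraries (points; lines are means). HMGN4 lies above the control mean of 29.1 in all 5 microRNA libraries, HMGN3 is lower in all 5, and HMGN1 overlaps between groups. HMGN2 itself fell: in this ratio 52.6% of tested rows lay above all controls with miR-1271 and 69.8% with miR-2355. Below all controls lay 10.3% and 5.43%.

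The make-up of the family's reads differed between the groups accordingly. The 5 genes together took 300.5, 320 and 319 CPM in the controls, 187 and 206 CPM with miR-2355, and 207, 206 and 205 CPM with miR-1271. These sums and all the shares of family reads include HMGN5, which was picked for its low miR-1271 level. Part of the lower sum and of the shifted shares therefore follows from that choice. The mean of HMGN5 was 17.3 CPM in the controls, 2.36 CPM with miR-2355 and 0.904 CPM with miR-1271. In the controls HMGN4 supplied 13.8% ± 0.49 (SD, n = 3) of family reads. Its share was 24.8% ± 3.8 (SD, n = 2) in the miR-2355 pulldown and 19.8% ± 1.4 (SD, n = 3) in that with miR-1271. The HMGN1 share differed between groups by less than its spread in the controls, at 29.3% ± 2.8 (SD, n = 3), 29.1% ± 1.9 (SD, n = 2) and 28.2% ± 0.95 (SD, n = 3). HMGN3 and HMGN5 supplied 3.84% ± 0.32 and 5.52% ± 1.16 (SD, n = 3) in the controls but 1.74% ± 0.30 and 0.438% ± 0.057 (SD, n = 3) with miR-1271. With miR-2355 they supplied 2.03% ± 0.12 and 1.20% ± 0.03 (SD, n = 2).

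Likeness to HMGN5 was measured as the Pearson correlation of log2 CPM over the 8 libraries, among 13678 other rows with a mean log2 CPM of at least 1. It is a description, since the libraries fall into 3 groups that share their pulldown. HMGN5 was also picked by its control and miR-1271 libraries, over which the correlation runs. The ranking therefore largely repeats the differences from control, and no relation within the family is read from it. Of these rows, 662 had a correlation above 0.95. The most alike, ENSG00000104320, reached 0.997, with smaller log2 differences from control than HMGN5, -1.59 with miR-1271 and -1.09 with miR-2355, and the first 5 rows lay between 0.994 and 0.997. HMGN3 was the member most like HMGN5, at 0.955, with 4.12% of rows more alike. HMGN1 followed at 0.930 (7.83% more alike), HMGN2 at 0.770 (22.9%) and HMGN4 at 0.167 (45.8%). Once group means were removed, HMGN3 and HMGN5 correlated at -0.08, so no likeness was seen within groups. With 8 libraries in 3 groups, and 9 or 10 HMGN5 reads in each miR-1271 library, this value cannot exclude one.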

How the data were processed

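The deposited values were raw read counts per Ensembl gene ID, 1 column per library; BWA, featureCounts and the builds hg38 and GRCh38 are named, without versions, in the submitters' processing notes. Reads that span a splice junction can be lost with BWA, which is not a spliced aligner. Rows were kept by filterByExpr and scaled by TMM, and all 8 libraries entered 1 quasi-likelihood fit with 1 mean for each group (edgeR 4.0.16, R 4.3.3). The procedure was tested on simulated data in which only a small part of the rows was changed. A wide shift in library composition was not simulated. P-values were adjusted by Benjamini-Hochberg over all 17351 tested rows and called under 0.05. Standard errors are the log2 fold change over the square root of F. Log2 CPM used a prior count of 2. The members and lists were chosen with earlier results of these data known.

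The gene table used here matched 0 of the Ensembl IDs, so the planned lists of HMGA, HMGB, linker histone, chaperone, remodeler and modifying-enzyme genes, the cell markers and the HMGN pseudogene rows were not analysed. Named genes were the members, the next-largest fall and the row most like HMGN5. Libraries of a group differed beyond sampling noise (chi-square per degree of freedom at least 5.76), so none was counted as a duplicate.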

Additional observations from a re-analysis of the deposited data

How the results depend on the processing

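The alternatives were RLE, upper-quartile or no scaling factors, no filter, DESeq2 1.42.0, a replicate block, only the groups compared, counts thinned to 4122875 per library, and each library left out. Under all of them HMGN1, HMGN2 and HMGN3 stayed lower than control with both microRNAs (adjusted p at most 0.0263), and HMGN4 and all direct differences of HMGN1 to HMGN4 stayed uncalled. Small uncalled differences changed sign: HMGN1 between the microRNAs was 0.095 with library totals, 0.0082 without the filter and 0.086 at equal depth, and ran from -0.048 to 0.00076 on leaving out 1 library; HMGN4 with miR-1271 was 0.025 with upper-quartile factors and 0.014 at equal depth. HMGN5 ran from -4.44 to -4.05 with miR-1271, from -3.05 to -2.66 with miR-2355 and from 1.30 to 1.50 between them on leaving out 1 library. Under the other alternatives HMGN5 ran from -4.41 to -4.07, from -2.90 to -2.72 and from 1.17 to 1.54 in the same order. HMGN2 with miR-2355 was -0.60 without miR-2355 replicate 1 and -1.03 without replicate 2; the library left alone is assumed to vary like the other groups.

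The shared replicate numbers left no visible pairing. In their deviations from group means, same-numbered libraries of different groups correlated at -0.10 to 0.02 and other-numbered ones at -0.10 to 0.10. Deviations of the miR-2355 libraries mirror each other exactly, so this check cannot exclude pairing. The replicate block gave -0.65, -0.54, -1.76 and -0.07 for HMGN1 to HMGN4 with miR-1271 and -0.68, -0.83, -1.54 and 0.17 with miR-2355, and changed no call. Over all rows, library totals moved the median miR-1271 difference to -0.14 and upper-quartile factors to 0.10; called rows were 3910 lower and 3062 higher with TMM, 4887 and 1896 with library totals, and 3328 and 4003 with upper-quartile factors. In the miR-2355 contrast with control, lower calls dropped from 3044 to 1569 when miR-2355 replicate 1 was left out. Between the microRNAs, 459 lower and 608 higher calls became 70 and 154 without miR-2355 replicate 2, and 902 and 970 with only the groups compared. Summing members with their pseudogene rows was not run, because those rows could not be named. Depth limits the HMGN5 level with miR-1271, which rests on 29 reads.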
